A study of Mus musculus with 2 samples.

Results

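The Ms4a genes encode small membrane proteins that cross the cell membrane in 4 spans, and 7 of them were followed here: Ms4a4b, Ms4a4c, Ms4a4d, Ms4a6b, Ms4a6c, Ms4a6d and Ms4a7. They were chosen by measured values, since Ms4a4b and Ms4a4c stand near one end of the difference between the arrays, and the other 5 were taken as their relatives. All 7 were measured, among 17501 genes in all, through 8 probes whose annotation names that gene alone. Ms4a6d had 2 probes and the other 6 genes had 1 each. What follows describes these values, and nothing in it tests the choice.

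Mouse lymphocytes were polarized in culture and compared on 2 two-colour microarrays. One array, called the Th1 array below, held RNA of Th1-polarized cells in Cy5 and RNA of Th0-polarized cells in Cy3. The other, called the Th17 array, held RNA of Th17-polarized cells in Cy5 and of Th0-polarized cells in Cy3. All lymphocytes came from a TRP-1 mouse, per the labels, a strain with T cells specific for a melanoma antigen. Th0 usually stands for activated T cells to which no polarizing cytokines were given. Each comparison had 1 array with no replicate and no dye swap, so no value below was tested and the precision is limited by that number.

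The best known member of the family is MS4A1, the B cell antigen CD20, and MS4A2 is the beta chain of the high-affinity receptor for immunoglobulin E on mast cells and basophils. Ms4a4b was described in T cells under the name Chandra, and its protein has been reported as a partner of the costimulatory receptor GITR. Ms4a6c, Ms4a6d and Ms4a7 are known mainly from monocytes and macrophages. Some family proteins have been reported in receptor complexes or near them, where they modulate signalling, and some act as chemoreceptors in olfactory neurons.

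In the gene table for assembly GRCm38.p6, used for order only because the files name no build, all 21 Ms4a genes lie on chromosome 19, and the 7 listed genes lie in 1 stretch in the order Ms4a7, Ms4a4c, Ms4a4b, Ms4a6c, Ms4a6b, Ms4a4d and Ms4a6d, with the unmeasured Ms4a4a between Ms4a7 and Ms4a4c. RefSeq windows before the annotated start matched 6 of the 7 genes. The 250 bases before the start are shown for the pairs Ms4a4b and Ms4a4c, and Ms4a6b and Ms4a6c, because each pair has closely similar windows and values that can be set beside each other. Capitals mark the longest run that both windows of a pair share, 20 bases in the first pair and 48 in the second. All 4 windows lie on the plus strand of GRCm38.p6, at chr19:11443308-11443557 for Ms4a4b, chr19:11407411-11407660 for Ms4a4c, chr19:11518309-11518558 for Ms4a6b and chr19:11469118-11469367 for Ms4a6c.
Ms4a4b: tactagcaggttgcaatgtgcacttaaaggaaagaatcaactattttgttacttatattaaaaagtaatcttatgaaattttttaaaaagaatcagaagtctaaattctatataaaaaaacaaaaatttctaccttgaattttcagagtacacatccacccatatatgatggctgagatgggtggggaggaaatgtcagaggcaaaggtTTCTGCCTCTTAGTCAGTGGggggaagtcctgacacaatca
Ms4a4c: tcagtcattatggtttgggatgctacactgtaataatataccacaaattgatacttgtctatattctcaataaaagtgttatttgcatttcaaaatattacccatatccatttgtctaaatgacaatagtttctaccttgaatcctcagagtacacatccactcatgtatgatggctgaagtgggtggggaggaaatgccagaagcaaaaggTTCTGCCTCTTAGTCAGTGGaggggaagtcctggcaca
Ms4a6b: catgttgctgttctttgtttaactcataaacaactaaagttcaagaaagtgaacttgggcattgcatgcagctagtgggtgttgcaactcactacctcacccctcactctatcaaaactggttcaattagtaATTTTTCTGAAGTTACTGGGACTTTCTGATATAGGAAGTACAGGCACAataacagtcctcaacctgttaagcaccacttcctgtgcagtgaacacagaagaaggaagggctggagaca
Ms4a6c: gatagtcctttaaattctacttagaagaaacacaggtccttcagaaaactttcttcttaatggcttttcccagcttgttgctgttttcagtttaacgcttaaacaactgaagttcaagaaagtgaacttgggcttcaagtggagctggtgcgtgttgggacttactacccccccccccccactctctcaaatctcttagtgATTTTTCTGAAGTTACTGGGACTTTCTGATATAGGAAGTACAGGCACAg

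The windows of Ms4a4b and Ms4a4c were 89.1% identical over 128 aligned columns, and those of Ms4a6b and Ms4a6c were 83.5% identical over 182. Among 32850 other windows, that of Ms4a6c scored highest against Ms4a6b, and the reverse held too. Against both Ms4a4b and Ms4a4c the highest score went to Gm8369, a predicted gene that the table places between Ms4a6c and Ms4a6b, and the other gene of the pair came second. No probe was named Gm8369 here, so it has no value.

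The deposited values were read as log2 ratios between the channels of an array, and the labels do not settle their direction. Titles and dyes name the polarized population over Th0, but the table states no numerator, and the lineage cytokine genes lay on the negative side: Ifng, the Th1 cytokine gene, at −2.02 on the Th1 array, and Il17a, the Th17 cytokine gene, at −5.37 on the Th17 array. The lineage genes Tbx21 and Il12rb2 were also negative on the Th1 array, at −1.25 and −0.59. On the Th17 array Il17f, Il21, Il22, Il23r and Ccl20 lay between −1.88 and −6.48. Read as titled, a negative value means that the polarized cells held less of the transcript than Th0 cells, and in the turned reading they held more. Only in the turned reading did the polarized cells hold more of these lineage transcripts, but no label states that reading. Sides are therefore given as deposited. The zero is not settled either: on the Th1 array the most repeated value was −0.85 and on the Th17 array −0.43, where equally bright channels would fall if 1 constant had been added per array. Equally bright channels need not mean equal expression. With those values as 0, the 13 measured control genes, such as Actb and Gapdh, had medians of 1.10 and 0.40 on the 2 arrays. As deposited, their medians were 0.25 and −0.02. The ratio carries no level of either channel, so no member can be called abundant or scarce. In RNA of a mixed culture, fewer cells of a type and less RNA per cell cannot be told apart.

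On the Th1 array, 4 of the 7 genes lay at least 2-fold to the negative side and 0 to the positive side, where 10.2% of all genes measured were at least 2-fold apart on either side, 6.92% on the negative side and 3.27% on the positive side. Since this array entered the choice of members, nothing is read from that count. Ms4a4c (gene number 64380) lay at −4.43, a 21.5-fold difference, and was the 22nd lowest of all genes. Ms4a4b (gene number 60361) lay at −2.23 (4.71-fold), Ms4a6b at −2.15 (4.44-fold) and Ms4a4d at −1.99 (3.97-fold). These folds depend on the zero: with the most repeated value of the array as 0, they were 11.9 for Ms4a4c, 2.61 for Ms4a4b, 2.47 for Ms4a6b and 2.20 for Ms4a4d, still on the negative side. The gaps between these 3, 0.08 and 0.16, were smaller than the pooled SD of 0.51 between different probes of a gene on this array, so their order is not resolved. Ms4a4c was 2.19 below the next member, Ms4a4b, which is more than that SD.

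The members known from macrophages stayed nearer to 0 on the same array. Ms4a7 lay at −0.71, Ms4a6c at 0.05, and the 2 probes of Ms4a6d at −0.13 and −0.02. Ms4a6c and Ms4a6d were not separated beyond the SD between probes. The median over the 7 genes was −1.99, beside −0.08 over all genes.

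On the Th17 array the family spread less, and 1 gene was at least 2-fold apart, where 8.42% of all genes were so on either side and 2.9% on the positive side. That gene was Ms4a4b, at 1.583 (close to 3-fold) on the positive side. Ms4a4c, the most distant member of the other array, lay at −0.26 here, a 1.2-fold difference. Ms4a6b lay at −0.13, Ms4a4d at −0.59 and Ms4a6c at 0.65. Ms4a7 was the lowest member at −0.97, just short of 2-fold, and the probes of Ms4a6d held −0.47 and −0.56. From Ms4a7 up to Ms4a6b, neighbours among the 5 lowest members lay closer than the SD of 0.49 between probes, whereas Ms4a6c stood 0.78 above Ms4a6b and Ms4a4b stood 0.93 above Ms4a6c. The median over the 7 genes was −0.26, which turned to 0.17 with the most repeated value of the array as 0, beside −0.03 over all genes.

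**Figure D1:**
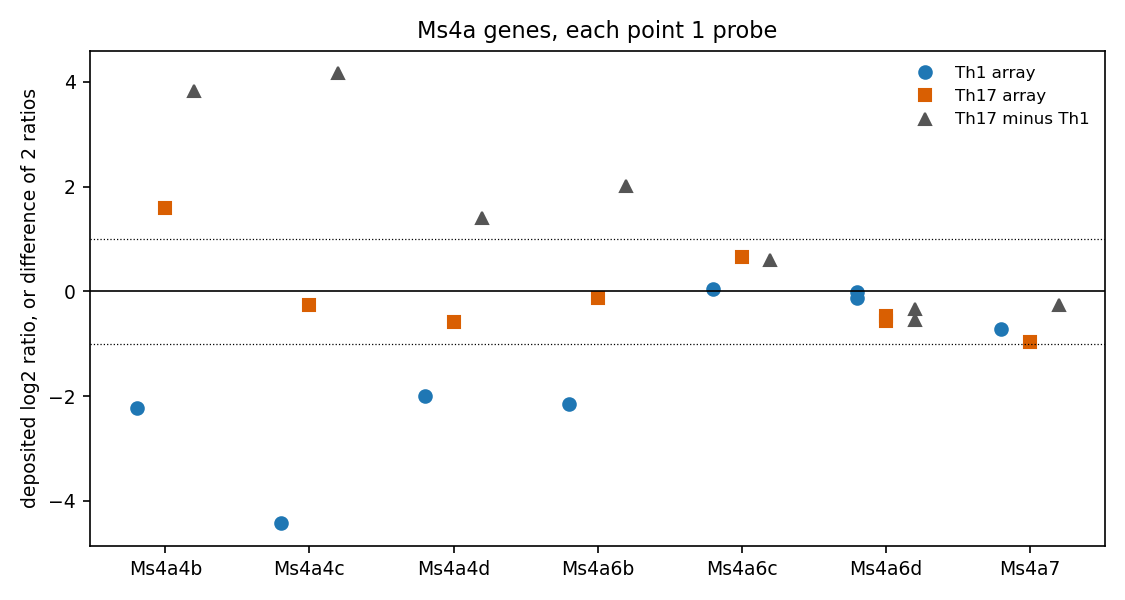
Deposited log2 ratio of each probe of the 7 Ms4a genes on the Th1 array (circles) and the Th17 array (squares), and their difference (triangles), with dotted lines at 2-fold. Ms4a4b is the gene with its arrays on opposite sides past both lines, at −2.23 and 1.583, while Ms4a4c is at −4.43 on one array and −0.26 on the other.

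The difference was formed by subtracting the Th1 array's value from the Th17 array's value. It assumes one Th0 RNA on both arrays, a point the labels leave unsaid. By it 4 of 7 members were at least 2-fold apart, all to the positive side, where 8.14% of all genes were apart on either side and 4.53% on the positive side. The rule used this difference, so the count is a description. Ms4a4c differed by 4.17 (17.9-fold), the 23rd highest of all genes, and Ms4a4b by 3.82 (14.1-fold), the 29th highest. The gap between them, 0.35, was within the SD of 0.52 between probes, although they reached it differently: Ms4a4c almost wholly through its Th1 and Th0 value, Ms4a4b through values on both sides of 0. Ms4a6b differed by 2.02 (4.05-fold) and Ms4a4d by 1.40 (2.63-fold), again mostly through the Th1 array. Ms4a6c differed by 0.60, Ms4a7 by −0.26 and Ms4a6d by −0.44. As titled, a positive difference means more transcript in Th17 than in Th1 cells, and in the turned reading less.

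Set beside genes that define T cell lineages, Ms4a4b lay on the side of Ifng on the Th1 array and on the side opposite to Il17a on the Th17 array. Ifng lay at −0.83 on the Th17 array and Il17a at 0.29 on the Th1 array, each on the side opposite to Ms4a4b. Tbx21, the Th1 master regulator, held −1.25 and 0.87 on the 2 arrays. Gata3, the Th2 master regulator that T cells in general also use, held −1.49 and 1.28. Il22, a Th17 cytokine gene, lay at −2.53 and −5.79, and Il2, the T cell growth factor gene, at −0.59 and −2.50. Il10, an inhibitory cytokine gene, lay at −2.35 and −0.36, nearer to Ms4a6b on both arrays than the SD between probes. Foxp3, the regulator of regulatory T cells, lay at 0.54 and 0.44. Of the other lineage genes listed, Il12rb2 lay at −0.59 and 1.01, Il23r at −1.02 and −1.88, and Il4 at 0.42 and −0.29. Il17f lay at 0.06 and −2.38, Il21 at −1.23 and −4.17, and Ccl20 at −0.67 and −6.48.

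**Figure D2:**
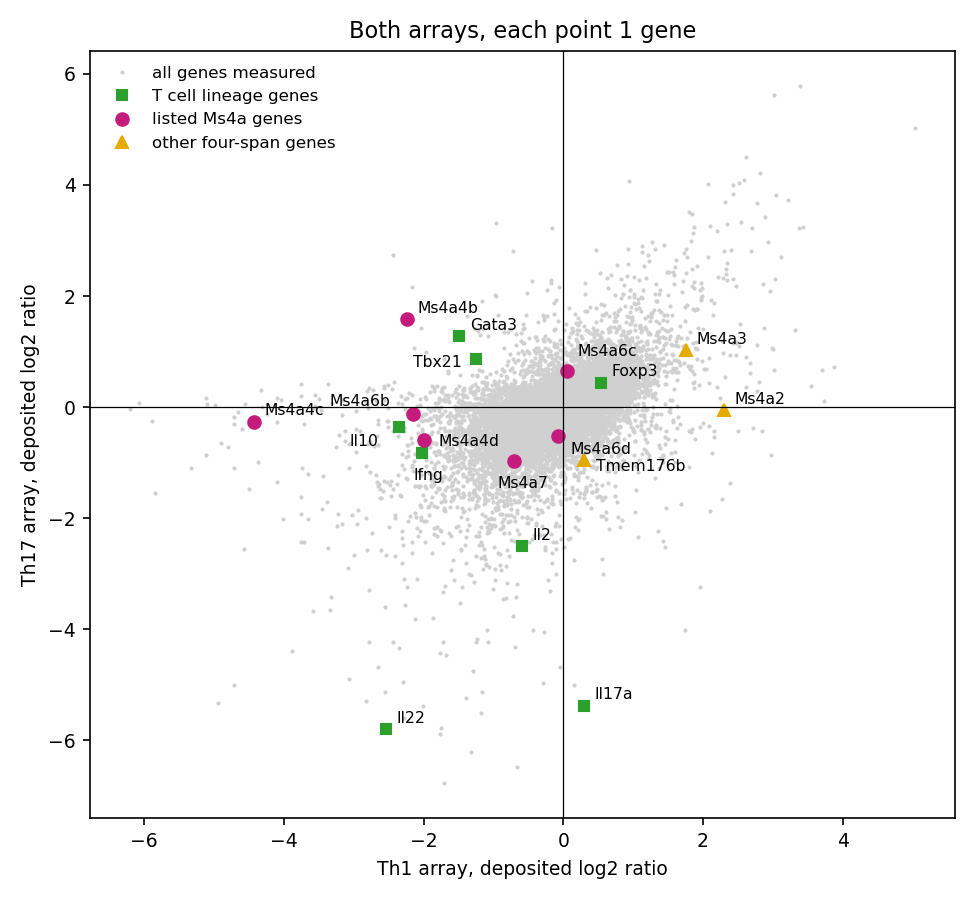
Each point is 1 gene, with its deposited log2 ratio on the Th1 array along x and on the Th17 array along y; the listed Ms4a genes, T cell lineage genes and 3 other four-span genes are named. Ms4a4b lies at upper left with Gata3 and Tbx21, Ms4a4c at the far left near the horizontal line, and Il17a and Il22 at the bottom.

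Genes whose pair of values was most like a member's were found by straight-line distance between their values on the 2 arrays, a likeness that rests on 2 points with Th0 cells as the shared comparator. Nearest to Ms4a4b were Ifi204, an interferon-inducible gene, at −2.03 and 1.43 (distance 0.25), then Defb39, Ccng2, Oog3 and Gata3 at distances of 0.52 to 0.81. Nearest to Ms4a4c were Lgals12, Prl7a1, Akr1c6, Pramel4 and Tex24, at distances of 0.22 to 0.29. Nearest to Ms4a4d were Il18r1, the gene of an interleukin 18 receptor chain, at −2.03 and −0.57 (distance 0.05), then Abca16, Ehf, Oas1h and Htt. Nearest to Ms4a6b were Hepacam2, Rnf144b, Slc25a40, Etd and Cldn18, at distances of 0.08 to 0.09.

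A large ratio can rest on a very weak channel. With the most repeated value of each array taken as that of equal signals, ratios to it were searched for whole-number pairs with a weaker channel of at most 5 units, within the rounding of the deposited values. A match shows only that the ratio is one of whole numbers, which brighter pairs can give too. Of the 16 values of the 8 member probes 0 matched such a pair, while 2.97% of all probes did on the Th1 array and 2.18% on the Th17 array. With shares that low, 0 of 16 sets the members apart from other probes in no way. Of probes with an absolute log2 ratio of at least 2, 32.0% did on the Th1 array and 23.7% on the Th17 array. Among member values only those of Ms4a4c, Ms4a4b and Ms4a6b on the Th1 array were that large, too few to compare with these shares. All 5 genes nearest to Ms4a4c matched one on the Th1 array, with a weaker channel of 1 or 2 units. Ccng2, near Ms4a4b, and Oas1h, near Ms4a4d, matched one there too, with 2 and 3 units, and neighbours with several probes were not searched. The ratio for Ms4a4c itself was 11.9, and its own signal strength was not analysed here. Since 6 of the 7 genes rest on 1 probe and the Ms4a4 and Ms4a6 genes are close relatives, a probe may take signal from more than 1 of them. This was not tested.

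Along the chromosome the negative values of the Th1 array did not run through the stretch without a break. Ms4a4c and Ms4a4b, neighbours within the family, lay at −4.43 and −2.23, Ms4a6c next to them at 0.05, then Ms4a6b and Ms4a4d at −2.15 and −1.99, and Ms4a6d at −0.08. Beyond Ms4a6d lie Ms4a2 and Ms4a3, which held 2.30 and 1.76 on the opposite side. On the other flank of Ms4a7, the measured genes from Ms4a10 to Ms4a5 ranged from −0.92 to 0.02.

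**Figure D3:**
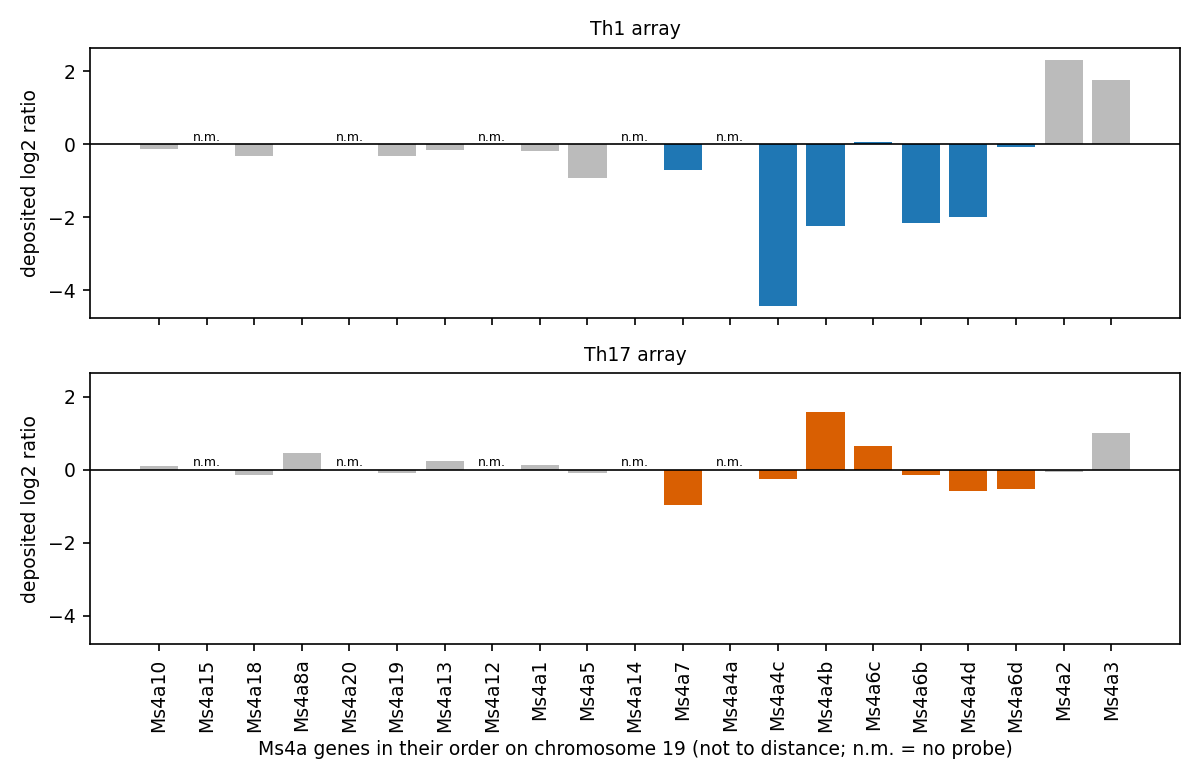
Deposited log2 ratio of every Ms4a gene in its order on chromosome 19, above for the Th1 array and below for the Th17 array; coloured bars are the listed genes, grey bars the other Ms4a genes, and n.m. marks a gene with no probe named for it here. The bars of Ms4a4c, Ms4a4b, Ms4a6b and Ms4a4d point down in the upper panel with Ms4a6c at 0.05 among them, and those of Ms4a2 and Ms4a3 point up at 2.30 and 1.76.

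The pairs with similar windows did not have like values on either array, each pair being farther apart than the SD between probes. Ms4a6b and Ms4a6c, with 83.5% identity upstream, lay at −2.15 and 0.05 on the Th1 array and at −0.13 and 0.65 on the Th17 array. Ms4a4b and Ms4a4c, with 89.1% identity over 128 aligned columns, lay at −2.23 and −4.43 on the Th1 array, both on the negative side. On the other array they lay at 1.583 and −0.26. In a search of both strands for 5 short motifs, the letters GAAANNGAA, part of the interferon response element, were found as GAAAGTGAA in both Ms4a6b and Ms4a6c, 206 and 133 bases before the start, and 7.13% of all 32851 windows held that motif. The windows of Ms4a4b, Ms4a4c and Ms4a4d held none of the 5, which also were the T-box core GGTGTGA (3.33% of windows), the STAT motif TTCNNNGAA (7.02%), the AP-1 motif TGANTCA (6.75%) and the ROR core AGGTCA (14.0%). GAAANNGAA can overlap the STAT motif, and a match of letters is no evidence that a factor binds. The 2 windows of Ms4a7 held the T-box core, the AP-1 motif and the interferon motif.

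Of the 15 other four-span genes listed for comparison, 10 were measured, and on the Th1 array 0 of them lay at least 2-fold to the negative side and 2 to the positive side, beside 6.92% and 3.27% of all genes. Their median was −0.06, or 0.79 with the most repeated value as 0. The 2 were Ms4a2 at 2.30 (4.94-fold, or 8.89-fold with that zero) and Ms4a3, a gene of basophils and granulocyte precursors, at 1.76 over 2 probes. On the Th17 array Ms4a2 lay at −0.05 and Ms4a3 at 1.02. Ms4a1, the CD20 gene, lay at −0.18 and 0.14. Tmem176a and Tmem176b, related four-span genes that have been linked to cells expressing the Th17 regulator RORgt, lay at 0.02 and 0.29 on the Th1 array and at −0.94 and −0.96 on the Th17 array, the side of Il17a. The rest, Ms4a5, Ms4a8a, Ms4a10, Ms4a13 and Ms4a18, and Ms4a19, which was added after its values were seen, were less than 2-fold apart on both arrays.

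Genes of the GITR receptor and of other receptors and calcium entry proteins on T cells were set beside Ms4a4b. Of 10 listed and measured, 2 lay at least 2-fold to the negative side of the Th1 array and 0 to the positive side, beside 6.92% and 3.27% of all genes. Their median was −0.25, or 0.60 with the most repeated value as 0. Tnfrsf18, the GITR gene, lay at −0.48 and −0.42 on the 2 arrays and its ligand gene Tnfsf18 at −0.23 and 0.06, neither of them 2-fold apart on any array. The costimulatory receptor gene Cd28 lay at −1.39 and −0.08 and the co-receptor gene Cd4 at −1.17 and −1.27. Icos, a relative of Cd28, lay at −0.83 and 0.29, and the inhibitory receptor gene Ctla4 at 0.39 and −1.06. Tnfrsf4 lay at −0.26 and −1.06 and Tnfrsf9 at 0.52 and 1.10, the latter over 2 probes. The calcium entry genes Orai1 and Stim1 stayed between −0.26 and 0.17.

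Marker genes of other cell types differed between the arrays and are given beside the Ms4a values. On the Th1 array, 12 of 15 macrophage and monocyte genes lay at least 2-fold to the positive side, where 3.27% of all genes did, with a median of 1.80 and a range from 0.03 to 3.54. Farthest out were the lipid carrier gene Apoe at 3.54, the adaptor genes Fcer1g and Tyrobp at 2.98 and 2.52, and Mpeg1 at 2.50. Of 12 mast cell and basophil genes, Ms4a2 among them, 11 lay at least 2-fold to that side, beside the same 3.27%, with a median of 2.29. Among them were the protease gene Prss34 at 3.31, Fcer1a, the alpha chain of the receptor that holds MS4A2, at 2.67, and Gata2 at 2.62. The median was −0.53 over 11 T cell genes, 2 of them at least 2-fold to the negative side, and −0.51 over 9 naive and memory T cell genes, 3 of them so, beside 6.92% of all genes. With the most repeated value as 0, both medians turned positive, to 0.32 and 0.34, while those of the macrophage and mast cell genes became 2.64 and 3.14. The median of the 13 control genes rose from 0.25 to 1.10 with that zero. Because the table holds ratios and no levels, the labelled cell type could not be checked from its markers. On the Th17 array the medians were 0.38 for macrophage, 0.94 for mast cell, −1.0 for T cell and −0.79 for naive and memory genes. At least 2-fold apart there were 4 macrophage genes on the positive side and 2 on the negative, and 5 mast cell genes on the positive side. On the negative side were 5 T cell genes and 4 naive and memory genes. Of all 17501 genes, 508 (2.9%) lay so on the positive side of that array and 966 of 17501 on the negative side. B cell genes had medians of −0.15 and 0.05. The macrophage-associated Ms4a6c, Ms4a6d and Ms4a7 lay at 0.05, −0.08 and −0.71 where the macrophage list had its median of 1.80. Ms4a4c, at −4.43, was below the lowest T cell gene (−1.43) and the lowest naive and memory gene (−1.84) on that array. On the Th17 array Ms4a4b, at 1.583, was above the highest T cell gene (0.43). It was below the highest macrophage gene (2.01) and the highest mast cell gene (2.31) there. Another zero shifts all values of 1 array by the same amount, and the amounts differ between the arrays. The part of these markers in the Ms4a values was not tested, and Ms4a4b and Ms4a4c had been picked by their values on these arrays.

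**Figure D4:**
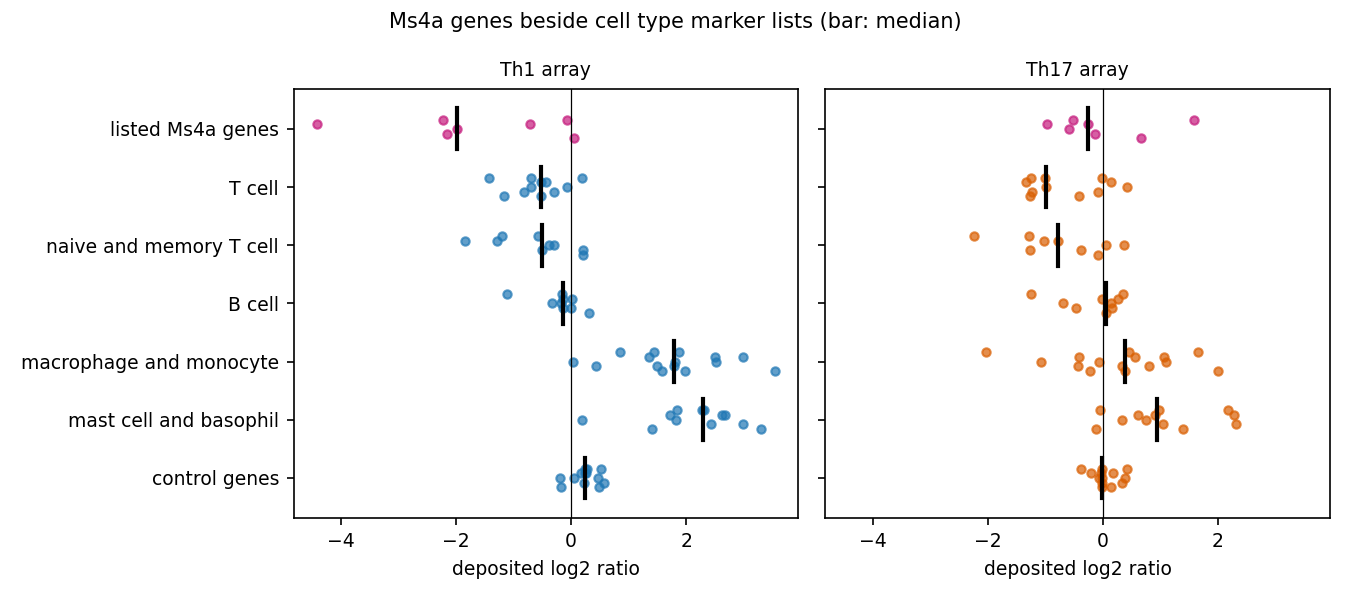
Deposited log2 ratios of the 7 Ms4a genes and of the marker lists on each array, each point 1 gene and each black bar the list's median. Ms4a genes have a median of −1.99 on the Th1 array, on the side of the T cell genes (−0.53, or 0.32 with the most repeated value as 0, against −1.14 for the Ms4a genes) and opposite to the macrophage (1.80) and mast cell (2.29) genes. Values of this array entered the choice of the Ms4a genes, so nothing is read from the side of their median.

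The zero of each array is not settled, and shares of negative and positive calls over all genes depend on it. Of all genes at least 2-fold apart on the Th1 array 67.9% were on the negative side as deposited, 56.5% when the array was centred on its median, 86.4% on control genes and 5.39% on the most repeated value. The corresponding shares were 65.5%, 62.0%, 63.6% and 25.4% on the Th17 array, and 44.4%, 51.1%, 22.7% and 81.8% for the difference. Under all 4 zeros, the same 4 Ms4a genes were at least 2-fold to the negative side of the Th1 array, and Ms4a4b to the positive side of the Th17 array. That could not come out otherwise. The largest shift on the Th1 array was 0.85, the 4 values were −1.99 or lower, and each shift raised the Th17 array's values. Of all 17501 genes, 1211, 989, 2034 and 297 lay so on the negative side of the Th1 array under the 4 zeros, in the order above. In the difference, Ms4a4d moved to 0.97 with the most repeated values as 0 and left 3 genes past 2-fold.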

How the data were processed

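Per the labels' protocols, RNA came from RNeasy columns and 500 ng of it went into an amino allyl amplification and dye labelling. The authors deposited 1 value per probe and array for 36547 probes, read here as log2 ratios; whether they added a constant per array is not known. Background correction and normalisation are not given in the sources used here.

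Of the probes, 26926 carried 1 gene symbol, 203 several and 9418 none here. Gene numbers matched a RefSeq table for 26774. Probes were averaged per gene, giving 17501 genes, 66.4% of them with 1 probe. With 1 array per comparison no test was run, and a gene was counted as called at an absolute log2 value of at least 1 (2-fold). The pooled SD between probes came from 5886 genes with several probes; it measures probe differences and not samples. Upstream windows were compared by local alignment (match 2, mismatch −3, gap −5 and −2) in Biopython 1.88.

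Members and lists were chosen with earlier results of these data known. Every member was named, as were the measured genes of the four-span and GITR lists, the 5 genes nearest to each member at least 2-fold apart, and lineage genes. Marker lists were given by counts and medians. Alternatives changed the centring, the fold, and the handling of probes.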

Additional observations from a re-analysis of the deposited data

Results flagged for a closer look

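Ms4a4b lay on the negative side of the Th1 array, at −2.23, and on the positive side of the Th17 array, at 1.583, a difference of 3.82 on the log2 scale. It was the member whose arrays lay on opposite sides of 0 as deposited, a trait that depends on the zero. With the most repeated values as 0, Ms4a4c (−3.58 and 0.17), Ms4a6b (−1.30 and 0.29), Ms4a6d (0.77 and −0.09) and Ms4a7 (0.14 and −0.545) did so too. So did Ms4a6d when centred on the median (0.04 and −0.47) and Ms4a6c on control genes (−0.20 and 0.68). With 1 array each, the difference for Ms4a4b was not tested.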

How the results depend on the processing

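Each member value was recomputed with other centrings and other handling of probes. Of 129 recomputed values, 122 moved by less than the SD between probes, and 0 values past 2-fold changed sign. Many of the 122 could not move, so that count is no measure of stability. Other handling of probes could not change the 6 members with 1 probe, and a centring shifts all genes of an array alike. The other 7 recomputed values all came from centring the Th1 array on its most repeated value. That centring adds 0.85 to every gene there and 0.43 on the Th17 array. Ms4a4b then lay at −1.39, Ms4a4c at −3.58, Ms4a4d at −1.14, Ms4a6b at −1.30, Ms4a6c at 0.90, Ms4a6d at 0.77 and Ms4a7 at 0.14. Centring on the median added 0.11 and 0.04, and centring on control genes added −0.25 and 0.02. Of the 7 members, the number at least 2-fold apart on the Th17 array was 2 with the most repeated value as 0, as Ms4a6c joined Ms4a4b. It was 4 at 1.5-fold and 0 at 3-fold, which Ms4a4b misses narrowly. For all genes, the most repeated value as 0 gave 5511 on the Th1 array. At 1.5-fold the counts were 4545, 3656 and 3594 on the Th1 array, the Th17 array and in the difference, at 3-fold 608, 575 and 545, and by probe 2815, 2332 and 2259. No paired analysis was possible because each group held 1 array, and for the same reason no array could be left out. Ms4a6d was the member with 2 probes. No probe with several symbols named a member. Signal over background was not analysed here.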
